A study of Mus musculus with 9 samples.

Results

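The cells described here were the non-dividing immature neutrophils of mouse femur bone marrow. A barcode was a member if at least 1% of its UMIs came from Camp and Ngp together and if it had no UMI of Mki67, Top2a, Cd79a or Csf1r. A UMI is a tagged RNA molecule, counted once. In all, 8431 of the 39051 barcodes that passed the quality limits (no fewer than 1000 UMIs and 500 genes, with mitochondrial UMIs not above 10%) met this rule, out of 68444 deposited barcodes. The marrow came from 9 female mice between 9 and 10 weeks old, with 3 each of the New Zealand Black strain (NZB), the New Zealand White strain (NZW) and their F1 hybrid NZBWF1, a strain that develops a disease resembling lupus. The labels name no treatment and no introduced allele, and strain was the only difference they give between the groups. The study reported a lower average cell viability in NZB than in NZW and NZBWF1, which cannot be told apart from strain. Each mouse gave 1 library, made from all nucleated femur cells after red cell lysis with 10x 3' v3.1 reagents. The study asked which cell types and genes set the hybrid apart from its parents before disease.

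Neutrophils form in the marrow from dividing precursors that pack their granules in a fixed order. Primary granules, with Mpo and Elane, come first, secondary granules, with Ltf, Camp, Ngp and Lcn2, follow as division ends, and tertiary granules, with Mmp9, come last, before the cells gain Cxcr2 and leave for the blood. Metamyelocytes and band cells, which no longer divide and still hold secondary granule transcripts, are the textbook counterpart of the cells chosen here. Camp encodes the antimicrobial cathelicidin, Ngp a cystatin-like granule protein, Ltf the iron-binding lactoferrin and Lcn2 a lipocalin that binds bacterial siderophores.

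The promoters of these 4 defining genes are shown because all are strongly transcribed at the same step, and because the factor C/EBP-epsilon, encoded by Cebpe, is known to act at genes of this class. Each sequence runs 5' to 3' on the gene's strand, from 250 bases before to 50 bases after the RefSeq start, in build GRCm38.p6. Camp lies at chr9:109849407-109849706 (minus strand), Ngp at chr9:110419558-110419857 (plus strand), Ltf at chr9:111019042-111019341 (plus strand) and Lcn2 at chr2:32387690-32387989 (minus strand). Capitals mark TTNNGCAA or its reverse complement TTGCNNAA, letters that occur within the palindrome C/EBP factors prefer. This motif was chosen after the sequences were seen.
Camp: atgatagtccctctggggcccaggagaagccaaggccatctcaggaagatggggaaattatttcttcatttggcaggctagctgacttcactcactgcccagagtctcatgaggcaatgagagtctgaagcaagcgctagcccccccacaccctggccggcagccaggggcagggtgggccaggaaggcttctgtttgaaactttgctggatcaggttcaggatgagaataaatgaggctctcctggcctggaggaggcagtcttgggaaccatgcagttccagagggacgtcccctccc
Ngp: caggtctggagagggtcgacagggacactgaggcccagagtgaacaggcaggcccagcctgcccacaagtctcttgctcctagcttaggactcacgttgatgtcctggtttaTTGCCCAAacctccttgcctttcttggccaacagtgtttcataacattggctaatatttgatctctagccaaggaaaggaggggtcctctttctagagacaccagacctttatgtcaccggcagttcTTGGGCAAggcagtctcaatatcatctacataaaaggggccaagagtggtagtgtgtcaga
Ltf: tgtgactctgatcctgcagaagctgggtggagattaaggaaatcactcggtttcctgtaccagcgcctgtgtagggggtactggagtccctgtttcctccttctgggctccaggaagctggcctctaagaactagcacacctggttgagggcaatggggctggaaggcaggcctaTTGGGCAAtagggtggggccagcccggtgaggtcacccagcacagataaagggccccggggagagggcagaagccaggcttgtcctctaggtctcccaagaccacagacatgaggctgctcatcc
Lcn2: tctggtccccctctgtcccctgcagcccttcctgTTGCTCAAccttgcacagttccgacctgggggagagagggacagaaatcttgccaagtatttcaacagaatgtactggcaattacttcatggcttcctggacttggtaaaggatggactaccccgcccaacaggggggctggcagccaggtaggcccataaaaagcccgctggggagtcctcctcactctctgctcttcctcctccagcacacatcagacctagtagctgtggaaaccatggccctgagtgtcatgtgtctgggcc
Ngp held 2 matches, beginning 138 and 11 bases before the start, Ltf held 1 (75 bases before) and Lcn2 held 1 (216 bases before). Camp held 0 within this window. Among all 32851 RefSeq promoters of this length, 10.8% held at least 1 match. A match is only a description of the letters.

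Kept barcodes numbered 2455 to 5684 per mouse, and members 645 to 1112. Members' UMIs summed to between 1545690 and 2605520 per mouse. A member had a median of 2116 UMIs and 621 genes, against a median of 3678 UMIs in the dividing neutrophil precursors and 1614.5 in mature neutrophils. Members carried little mitochondrial RNA (median 0.522% to 1.14% of UMIs by mouse). RNA free in the droplets, estimated from barcodes with at most 100 UMIs, made up 0.528% to 6.47% of members' UMIs and was highest in NZB mouse 2 (6.47%) and NZBWF1 mouse 2 (4.57%). A total of 86 members had a barcode sequence that was also kept in another library.

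The name of the cells was checked against markers that the rule had not used. After each cell was thinned to 1000 UMIs, Lcn2 was detected in 98.7% ± 0.641 of members (SD, n = 9 mice) and Ltf in 96.8% ± 0.639. In B cells, a type that should lack both, these shares were 6.49% and 1.92%, at a median depth of 1849 UMIs before thinning. Dividing precursors gave 96.0% and 91.2%, and mature neutrophils 85.5% and 14.6%. Detection of these markers thus hardly separated members from dividing precursors. The thinned values of members were close for all 9 mice, with Ltf between 95.7% and 97.6%. S100a8 and S100a9 with the other genes of the alarmin list summed to 328390 CPM (UMIs per 1000000 UMIs of the same cells), ranging from 314590 to 352970 over mice. Among other cell types, summed B cell markers ranged from 74.2 to 945 CPM, with the highest value in NZB mouse 3, where Igkc alone gave 824 CPM. The summed markers of erythroid cells (64.4 to 239 CPM), macrophages (48.6 to 223), monocytes (28.8 to 205), dendritic cells (16.2 to 136), plasma cells (43.8 to 124), basophils or mast cells (1.29 to 97.8), T or NK cells (8.83 to 84.1), stem cells (10.998 to 29.1), megakaryocytes (1.29 to 8.49) and eosinophils (0 to 1.37) were low.

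The limits of the rule were examined next. A total of 71 members lay within 0.25 percentage points above the limit of 1%, and 81 barcodes with none of the 4 excluded transcripts lay within 0.25 points below it. Cells on either side resembled each other more than the bulk of the members. Elane was 5787 CPM just inside, 7404 CPM just outside and 252 CPM in members with a share of 8% or more. Retnlg was 27384, 21485 and 2693 CPM and Ltf 1323, 818 and 13488 CPM in the same order. The edge of the rule thus held cells rich in transcripts of the earliest and of the latest stages, as pooled values over all mice. The gene minimum touched more cells: 3126 barcodes met every other condition but had fewer than 500 genes, 27.0% of those that would otherwise have been members. This percentage was 16.8, 41.3 and 35.4 in NZB, 17.4, 12.9 and 33.1 in NZW and 14.9, 28.4 and 21.7 in NZBWF1. Those barcodes carried 24404 CPM of Retnlg against 6608 CPM in members, and 9334 against 12117 CPM of Ltf. The barcodes left out were thus richer in a late transcript than the members, and their share differed between mice.

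As a share of all kept barcodes, immature neutrophils were 29.9%, 21.3% and 28.8% in NZB, 24.8%, 15.7% and 22.5% in NZW and 25.1%, 18.5% and 17.6% in NZBWF1. The means were 26.7% ± 4.69, 20.99% ± 4.75 and 20.4% ± 4.10 (SD, n = 3 each), and the strains overlapped. Neither a test over the 3 strains (exact permutation p = 0.261, adjusted 0.714) nor one of NZBWF1 against the parents (exact permutation p = 0.357, adjusted 0.714) passed. Within the neutrophil lineage (dividing, immature and mature cells), members were 73.8%, 53.2% and 64.3% in NZB, 69.3%, 52.2% and 63.4% in NZW and 71.6%, 58.3% and 62.4% in NZBWF1. The lowest value of each strain belonged to mouse 2, and the strain means lay within 61.6% to 64.1%. No difference was detected (exact permutation p = 0.932 over strains and 0.810 for NZBWF1 against the parents, both adjusted 0.932). With 280 and 84 possible arrangements, two-sided p could not fall under 0.00357 and 0.0119. The size of the lineage shares moved with depth, since members are defined by finding no Mki67 or Top2a UMI. With each cell thinned to 1000 UMIs, the rule gave 10713 members and 2981 dividing cells. Mean lineage shares were then 76.2% in NZB, 74.6% in NZW and 76.5% in NZBWF1 (exact permutation p = 0.896 over strains). With at least 2000 UMIs and 1000 genes they were 17.4%, 15.6% and 21.4%. Without the gene minimum the means among kept barcodes were 32.8%, 24.8% and 23.9% (exact permutation p = 0.0821 over strains, adjusted 0.329).

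**Figure D1:**
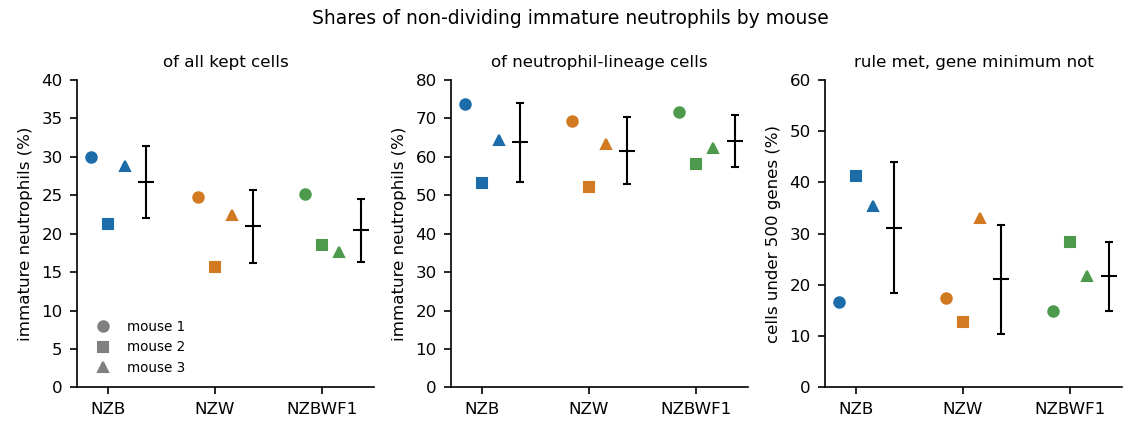
Percent of kept barcodes (left) and of neutrophil-lineage barcodes (middle) that were immature neutrophils, and percent of barcodes meeting the rule that fell under 500 genes (right), with a point per mouse and the mean ± SD of each strain. The strains overlap in every panel, and mouse 2 is lowest of its strain in the middle panel.

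Ltf and Lcn2 were highest in members, Elane was lower than in dividing precursors, and Retnlg and Cxcr2 lay between dividing precursors and mature neutrophils. Camp was 55828 CPM in members and 68324 CPM in dividing cells. Because the populations were defined by marker genes, these levels are a description without a test. Ltf averaged 12206 CPM ± 1353 (SD, n = 9) in members, 7385 CPM in dividing cells and 270.1 CPM in mature cells, and was highest in members in all 9 mice. Lcn2 followed the same order (22606, 14346 and 6029 CPM). So did Cybb, the catalytic subunit of the NADPH oxidase that makes superoxide (2035, 1409 and 692 CPM), and Ly6g, the surface protein used to sort mouse neutrophils (2047, 604 and 1113 CPM, with the mature cells second). Olfm4, a secondary granule glycoprotein made in a subset of neutrophils, was 784 CPM in members against 364 and 244 CPM.

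Genes of the first granules were below their level in dividing cells. Elane (neutrophil elastase) was 770 CPM in members and 1839 CPM in dividing cells, lower in members in 9 of 9 mice. Fcnb (ficolin-B) was 191 CPM against 533 CPM, again lower in 9 of 9 mice. Mpo, at 278 CPM against 534 CPM, was lower in 7 of 9. Cebpe, which encodes a transcription factor and no granule protein, was 737 CPM against 979 CPM, also lower in 9 of 9 mice. Genes of the last granules and of release, and Mmp8 of the secondary granule list, stood above their level in dividing cells. Mmp8 (neutrophil collagenase) was 9.87-fold and Mmp9 (gelatinase B) 7.13-fold higher in members than in dividing cells. Retnlg, a resistin-like protein of late neutrophils, was 8.64-fold higher, and the chemokine receptor Cxcr2 4.16-fold higher. Retnlg and Cxcr2 stood far higher still in mature cells, at 28315 and 615 CPM against 6752 and 193 CPM in members. Il1b, the inflammatory cytokine, was 13.6 CPM in members and 172 CPM in mature cells.

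Cell cycle genes outside the rule followed Mki67 and Top2a. Birc5, a mitotic regulator, was 33.9 CPM in members and 425 CPM in dividing cells. Cdk1, the kinase that drives entry into mitosis, was 14.7 against 258 CPM, and the replication clamp Pcna 7.39 against 37.6 CPM. At 1000 UMIs per cell, any of 13 mitotic genes was detected in 9.78% ± 3.76 of members, 81.4% of dividing cells and 10.8% of mature cells. For 25 S phase genes the shares were 15.7% ± 3.85, 69.5% and 22.5%. The B cells, which include dividing cells, gave 44.2% and 62.7%.

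**Figure D2:**
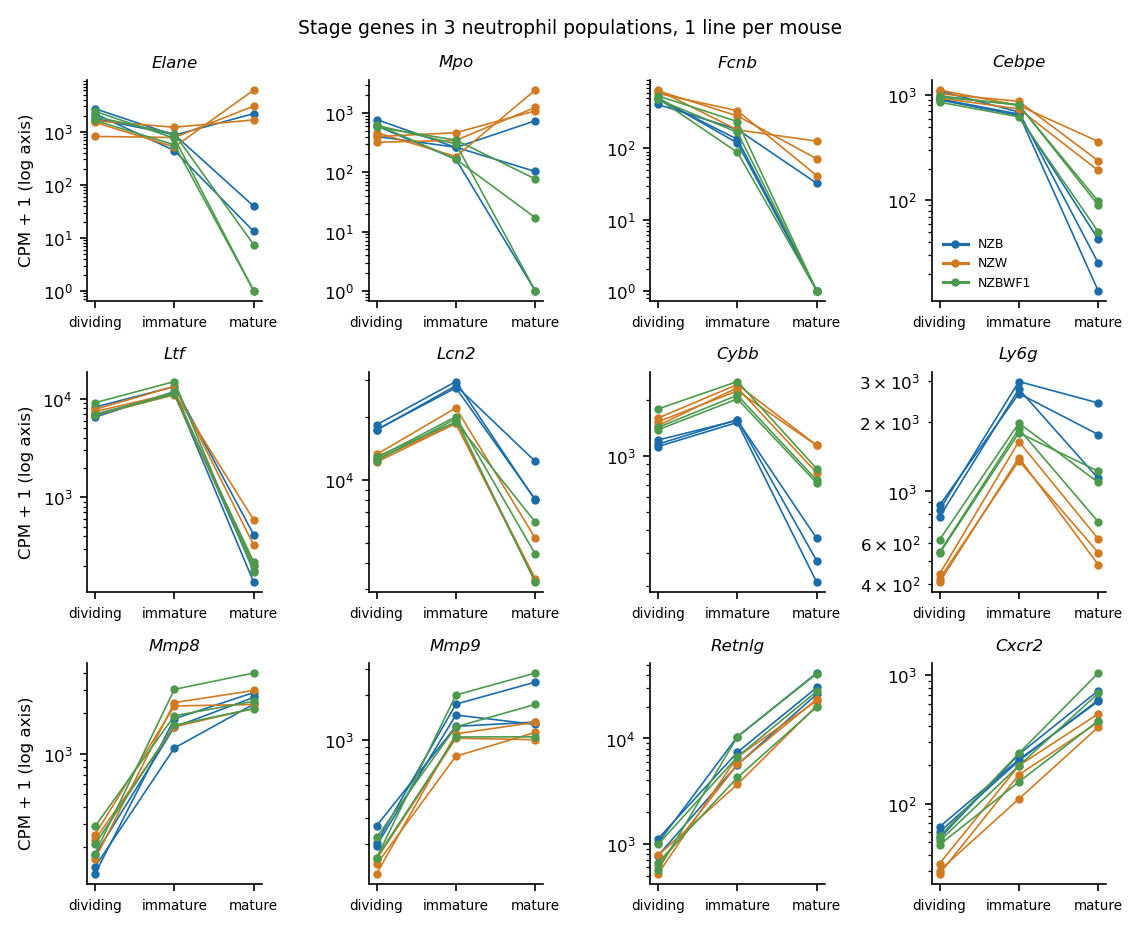
Levels of 12 stage genes (CPM + 1, log axis) in dividing, immature and mature neutrophils, with 1 line per mouse coloured by strain. Ltf, Lcn2, Cybb and Ly6g peak in the immature cells of every mouse, Elane and Cebpe are lower than in dividing cells, and Retnlg and Cxcr2 are highest in mature cells.

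Elane and Mpo in the mature cells varied with the mouse. Elane was 749.9 CPM in NZB, 3613 CPM in NZW and 2.12 CPM in NZBWF1 on average. The mature population was small (494 barcodes, 42 to 79 per mouse), and any of Mpo, Elane, Prtn3 and Ctsg was detected in 10.6% of it in NZB and 16.3% in NZW. Without the gene minimum it held 1644 barcodes, from 80 in NZW mouse 2 to 272 in NZB mouse 1. The strain comparisons with mature cells were not refitted without that minimum. Comparisons with mature cells are given beside these values.

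Members were not uniform, and their spread in Camp and Ngp content followed other stage genes that the rule had not used. The share of UMIs from Camp and Ngp had a median of 10.3% and ran from 2.63% (5th percentile) to 14.8% (95th). Members were split at 4%, 8% and 12%, giving 793, 1575, 3481 and 2582 cells, and levels were computed without Camp and Ngp UMIs. From the lowest to the highest band, Ltf was 4010, 11023, 15216 and 15847 CPM and Lcn2 11649, 19368, 26094 and 30932 CPM. Cebpe also increased along the bands, from 351 to 1062 CPM, whereas Ly6g was 1595, 2302, 2501 and 2154 CPM. Retnlg went the other way (24048, 15784, 5096 and 922 CPM), as did Cxcr2 (436, 332, 191 and 110 CPM). Mmp8 and Mmp9 were highest in the second band (3521 and 1995 CPM) and lowest in the last (909 and 858 CPM). Elane (4446, 1438, 407 and 111 CPM) and Mpo (1884, 542, 92.5 and 20.5 CPM) were also highest in the band with least Camp and Ngp. Igkc, an immunoglobulin gene of B and plasma cells, moved with the same bands (1476, 103.5, 65.0 and 63.8 CPM), reaching 12195 CPM in 1 mouse in the lowest band, and its part in these values was not tested.

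**Figure D3:**
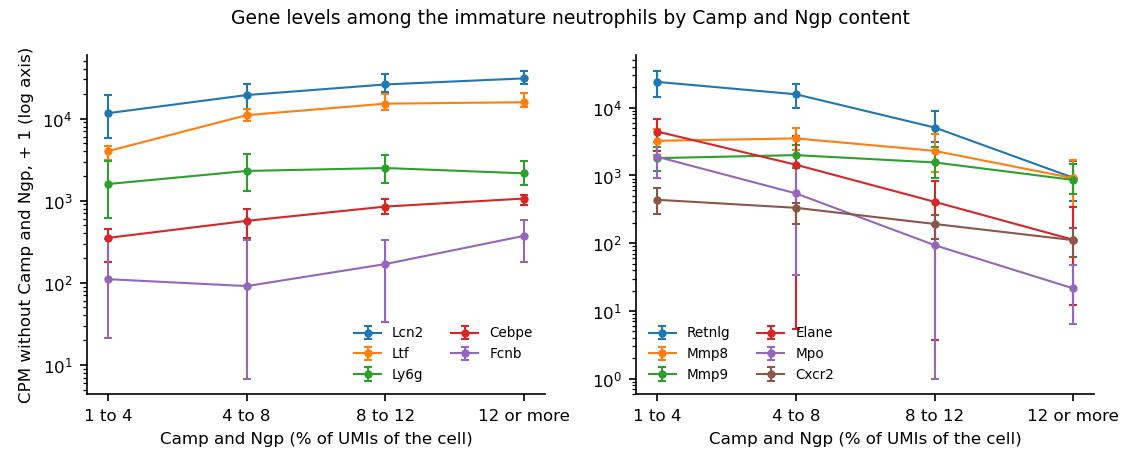
Levels (CPM of UMIs other than Camp and Ngp, + 1, log axis) in 4 bands of members by the share of their UMIs from Camp and Ngp, as the mean over 9 mice with the lowest and highest mouse. Ltf, Lcn2 and Cebpe are highest in the last band, while Retnlg, Cxcr2, Elane and Mpo are highest in the first.

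The low band held both early and late transcripts, and detection per cell was used to ask whether they came from the same cells. Thinned to 1000 UMIs, 78.5% ± 7.54 of members had a late transcript (Mmp9, Retnlg, Cxcr2 or Mmp8 of the secondary granule list) and no early one (Mpo, Elane, Prtn3 or Ctsg). Another 3.68% ± 1.92 had an early transcript only, 2.50% ± 0.960 had both, and 15.3% ± 5.46 had neither. In B cells 8.77%, 3.07%, 0.510% and 87.6% fell into these classes. The early-only shares cannot be set side by side, because far fewer members than B cells lacked a late transcript. An early transcript, with or without a late one, was seen in 6.18% ± 2.51 of members and 3.58% ± 1.62 of B cells. Early transcripts were concentrated in the members with least Camp and Ngp, as given above. Late transcripts were seen in 81.0% ± 7.01 of members, 28.8% of dividing cells and 98.5% of mature cells. Fcnb was seen in 11.02% ± 5.13 of members, 36.8% of dividing cells, 1.09% of mature cells and 0.109% of B cells. Mouse 2 had the lowest Retnlg level of each strain (5638, 3664 and 4264 CPM, against 5670.5 to 10405 CPM in the other mice).

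Strain differences in gene expression were tested on members' UMIs summed per mouse. Of 7452 genes, 628 (8.43%) differed between NZB and NZW at an adjusted p under 0.05 (edgeR's quasi-likelihood test, Benjamini-Hochberg), with 336 higher (4.51%) and 292 lower (3.92%) in NZB. A difference over 2-fold was found for 321 of them. Along the first principal component, 55.5% of the variance separated NZB (-11.3 to -10.3) from NZW (6.32 to 9.26), with NZBWF1 in between (2.47 to 3.41). The direction of small differences depended on scaling. TMM, which assumes that most genes do not change, gave NZB factors of 0.859 to 0.941 and others of 0.983 to 1.08, and put the median gene at -0.02 (log2, NZB less NZW). With UMI totals alone that median was -0.20, and 768 genes were called, 217 higher and 551 lower. Log2 differences under 0.2 in size are read with this shift in mind.

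**Figure D4:**
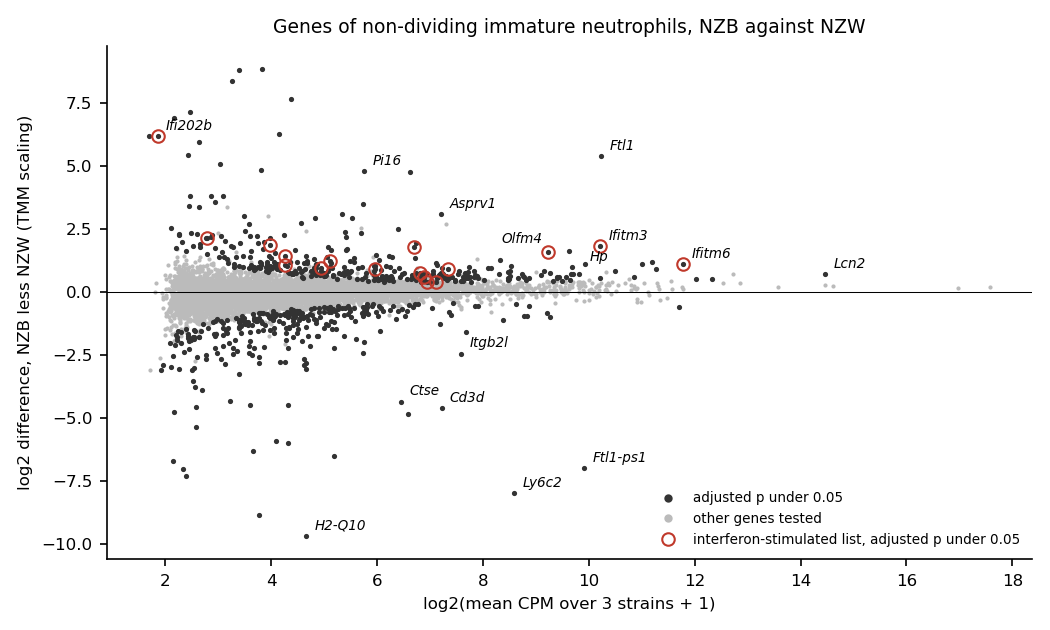
Log2 difference between NZB and NZW in immature neutrophils (TMM scaling) against the log2 of the mean level (CPM + 1), with 1 point per gene tested. Black points passed the test (628 of 7452), and red rings mark the 17 interferon-stimulated genes that passed, all above 0.

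The genes with the strongest evidence included near copies of other genes. Ly6c2, the Ly6C antigen of myeloid cells (chromosome 15, 75108158 to 75111970, GRCm38), was 3.09, 1.66 and 3.19 CPM in NZB, 832, 704 and 755 CPM in NZW and 349, 375 and 416 CPM in NZBWF1. The strains did not overlap, and NZB members held only 17 UMIs of it in all. The log2 difference between NZB and NZW was -7.99 ± 0.23 (SE; adjusted p = 1.35e-14). At 1000 UMIs per cell, 52.0% of NZW, 32.1% of NZBWF1 and 0.142% of NZB members had a Ly6c2 UMI. Its near copy Ly6c1 was 2.36 CPM in NZB, 0.269 in NZW and 1.121 in NZBWF1 on average, from 25 UMIs in all, and the assignment of reads between the copies was not tested.

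Ftl1, the ferritin light chain (chromosome 7, 45457944 to 45459884), was 2643, 2174 and 2207 CPM in NZB, 57.6, 58.9 and 72.6 CPM in NZW and 1083, 1134 and 1384 CPM in NZBWF1. Its near copy Ftl1-ps1 (chromosome 13, 74399694 to 74407346) was 12.4, 14.1 and 10.9 CPM, then 1948, 1655 and 1852 CPM, then 945, 942 and 1252 CPM. These mirror one another (log2 differences 5.40 ± 0.19 and -7.00 ± 0.21, adjusted p = 1.34e-13 and 1.35e-14). Their sum was 2354 ± 262 CPM in NZB, 1881 ± 150.2 in NZW and 2247 ± 338 in NZBWF1, a ratio of 1.251 between the parents. The counts cannot tell which copy a read came from where their sequences coincide. Fth1, the heavy chain, was 2044 CPM in NZB, 1553 in NZW and 1978 in NZBWF1 (0.58 ± 0.15, adjusted p = 0.0206), a call lost without NZB mouse 1 or 3 or NZW mouse 2 or 3 (adjusted p of 0.0625 to 0.116) and with UMI totals (0.0737).

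Another near copy was Tpm3-rs7, of tropomyosin (168 to 196 CPM in NZB, 5.66 to 8.83 in NZW, 88.1 to 119 in NZBWF1). The related gene Tpm3 ran the other way between the parents (NZB 173 to 254 CPM, NZW 328 to 381 CPM), with the hybrid at 211 to 293 CPM. How reads were assigned between Tpm3 and Tpm3-rs7 was not tested. Cd3d, a T cell receptor component, also had strong evidence (NZB 9.28 to 10.9 CPM, NZW 212 to 329, NZBWF1 141 to 198). Cd3d stood alone among its complex, since Cd3e was at most 6.47 CPM and Cd3g at most 9.70 CPM in any mouse. Ctse, the protease cathepsin E, was 4.64 to 9.56 CPM in NZB, 144 to 178 in NZW and 75.8 to 111 in NZBWF1. Pi16, a peptidase inhibitor, was 89.3 to 105 CPM in NZB against 2.83 to 4.61 in NZW. Cmc2, a mitochondrial assembly protein, was 73.2 to 86.4 against 8.06 to 14.8 CPM. The noncoding AC139671.1 was at most 1.55 CPM in NZB and 63.7 to 75.2 CPM in NZW. Htatip2, an oxidoreductase, had 0 UMIs in NZW, so that NZB was at least 54.3-fold higher against a floor of 3 UMIs over the strain, and NZBWF1 at least 32.6-fold.

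Genes of the secondary granule list, which also holds genes not known as granule proteins such as Itgb2l and Adpgk, differed in both directions. Of 15 tested, 4 were higher and 3 lower in NZB (3 and 3 with UMI totals), against 4.51% and 3.92% of all genes, with a median log2 difference of 0.18 against -0.02 for all genes. Lcn2 was 28252, 27588 and 29566 CPM in NZB, 22115, 18667 and 18633 in NZW and 18925, 19619 and 20088 in NZBWF1. Every NZB mouse lay above all others (0.70 ± 0.13, adjusted p = 0.00172). Olfm4 was 1297, 1065 and 1228 CPM in NZB, 499, 410.5 and 421 in NZW and 827, 595 and 709 in NZBWF1, in 3 separate ranges (1.61 ± 0.16, adjusted p = 1.02e-06). Hp, the haemoglobin scavenger haptoglobin stored in these granules, was 3044 to 3484 CPM in NZB and 1739 to 2267 in NZW (0.91 ± 0.15, adjusted p = 0.00031).

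The opposite direction was led by Itgb2l, a beta 2-like integrin chain known to mark maturing neutrophils. It was 55.7, 39.9 and 61.5 CPM in NZB, 340.0, 274 and 351 in NZW and 232, 173 and 188 in NZBWF1, with no overlap between any strains (-2.44 ± 0.18, adjusted p = 1.54e-08). Adpgk, an ADP-dependent glucokinase, was 348 to 438 CPM in NZB and 777 to 904 in NZW (-0.97 ± 0.15, adjusted p = 0.000215). Ltf did not pass (0.21 ± 0.15, adjusted p = 0.481), with all strains between 10955 and 14955 CPM. Camp and Ngp themselves, untested as rule genes, were 49693 ± 2097 and 49835 ± 3888 CPM in NZB, 60825 ± 1101 and 39983 ± 1542 in NZW and 56967 ± 2472 and 43476 ± 1592 in NZBWF1. Their sums were nearly equal (99528, 100809 and 100443 CPM), although the ratio of Camp to Ngp was not.

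Of 13 primary granule genes, 2 were higher and 0 lower in NZB, against 4.51% and 3.92% of all genes, with a median of 0.39. With UMI totals 0 were called by edgeR and the median was 0.21 against -0.20 for all genes, while at an unadjusted p under 0.05 under TMM, and by DESeq2, 2 were higher. Elane (441 to 883, 517 to 1212 and 566 to 913 CPM in NZB, NZW and NZBWF1) and Mpo overlapped across strains. The calls were Srgn, the proteoglycan that packs granule proteins (0.73 ± 0.18, adjusted p = 0.0125), and Ctsc, the protease that activates elastase (1.38 ± 0.38, adjusted p = 0.0294), and both were lost with UMI totals (adjusted p = 0.119 and 0.0582). Srgn was also lost without NZB mouse 3 or NZW mouse 3 (0.0773 and 0.0608) and Ctsc without any of 5 of the 6 parental mice (0.0533 to 0.116). Neither Prss57 (0.39 ± 0.21) nor Serpinb1a (0.28 ± 0.17) passed (adjusted p = 0.296 and 0.355).

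In the list of tertiary granule and late genes, 5 of 29 were higher and 1 lower in NZB (9 and 1 by DESeq2, 5 and 2 with UMI totals), against 4.51% and 3.92% of all genes, and the median was 0.61 against -0.02 for all genes. Il1r2, the decoy receptor for interleukin 1, was 42.8, 67.7 and 52.8 CPM in NZB, 26.5, 12.5 and 16.9 in NZW and 36.9, 24.1 and 27.1 in NZBWF1 (1.68 ± 0.24, adjusted p = 0.00025). Asprv1, an aspartic protease, was 181 to 486 CPM in NZB and 39.6 to 46.1 in NZW (3.099 ± 0.36, adjusted p = 0.000903). The Myc antagonist Mxd1 (0.97 ± 0.18, adjusted p = 0.00217) and the lectin receptor Clec4d (1.42 ± 0.30, adjusted p = 0.00702) were also higher. The defining late genes did not pass: Retnlg was 0.74 ± 0.40 (adjusted p = 0.363), Mmp9 0.80 ± 0.24 (0.0563) and Cxcr2 0.69 ± 0.22 (0.0817). Mmp8, of the secondary granule list, did not pass either (-0.29 ± 0.27, adjusted p = 0.613). The gene minimum had removed barcodes rich in Retnlg, and without it Il1r2, Asprv1, Mxd1 and Clec4d were still called higher in NZB.

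Interferon-stimulated genes, the longest list, were called in 1 direction only under TMM. Of 55 tested, 17 were higher and 0 lower in NZB, against 4.51% and 3.92% of all genes, and their median log2 difference was 0.58 (DESeq2 called 15 and 0, and 26 and 3 had an unadjusted p under 0.05). With UMI totals 15 were higher and 2 lower, with a median of 0.40 against -0.20 for all genes. The summed level of the list was 9493 to 11398 CPM in NZB, 5365.5 to 6479 in NZW and 6485 to 6985 in NZBWF1, with no overlap between any strains. Much of this sum came from a cluster of membrane proteins that restrict virus entry. Ifitm6 was 4969.7, 5519 and 4424 CPM in NZB, 3123, 2319 and 2418 in NZW and 2932, 2967 and 3092 in NZBWF1 (1.10 ± 0.16, adjusted p = 0.000102). Ifitm3 was 2076, 2162 and 1693 CPM, then 699, 586 and 601, then 1014, 870.2 and 982, in 3 separate ranges (1.83 ± 0.16, adjusted p = 1.09e-07). Ifitm2 was 1071, 1099 and 829 CPM in NZB and 341 to 462 in the other mice (1.60 ± 0.16, adjusted p = 1.01e-06), but with at least 2000 UMIs and 1000 genes per cell the difference was -0.16 (adjusted p = 0.807). These genes are related copies at 1 locus on chromosome 7, and reads could be split among them, which was not tested. Summed over Ifitm2, Ifitm3 and Ifitm6, the level was 7948 ± 929 CPM in NZB, 3625 ± 478 in NZW and 4363 ± 92.1 in NZBWF1.

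Beyond this cluster, Trim30a, a regulator of inflammasome signalling, was 42.3 to 46.9 CPM in NZB, 20.3 to 22.8 in NZW and 27.5 to 38.6 in NZBWF1 (1.24 ± 0.17, adjusted p = 6.33e-05). Among the rest, chosen after their values were seen, Irf7, a transcription factor of the interferon response, was 21.6 to 27.3 against 10.7 to 14.7 CPM (1.08 ± 0.22, adjusted p = 0.00318). Ifi202b, a cytosolic DNA-binding protein, was 3.09, 4.99 and 3.19 CPM in NZB and 2.59, 5.08 and 4.52 in NZBWF1, and had no UMI in any NZW member. Ifi204, a related DNA sensor, went the other way between the parents without passing (0.415 to 1.37 against 1.92 to 3.96 CPM; adjusted p = 0.0959).

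Of 11 Fc and complement receptors and their relatives, 4 were higher in NZB and 0 lower (3 and 0 with UMI totals), against 4.51% and 3.92% of all genes, with a median of 0.54. Pirb, an inhibitory receptor, was 394, 468 and 491 CPM in NZB, 234, 176 and 211 in NZW and 340.3, 259 and 309 in NZBWF1, in 3 separate ranges (1.29 ± 0.15, adjusted p = 7.13e-06). Its relatives Lilr4b (69.8 to 77.8, 4.53 to 13.05 and 30.5 to 38.8 CPM) and Lilrb4a (20.6 to 22.02, 2.26 to 3.84 and 3.23 to 9.87 CPM) are near copies whose reads may be split. Fcgr4, an activating IgG receptor, was 28.7 to 43.8 against 20.9 to 26.9 CPM (0.83 ± 0.21, adjusted p = 0.0164), and lost its call without any of 4 mice (adjusted p of 0.0621 to 0.106) and with UMI totals (0.0503).

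Of 21 receptors for retention and release, 4 were higher in NZB and 0 lower (3 and 0 with UMI totals), against 4.51% and 3.92% of all genes, with a median of 0.29. Selplg, the selectin ligand with which neutrophils roll, was 179.9 to 192 CPM in NZB, 84.4 to 104 in NZW and 116 to 153 in NZBWF1 (1.15 ± 0.14, adjusted p = 1.55e-05). Csf2rb, the shared chain of cytokine receptors including that of GM-CSF (0.85 ± 0.13, adjusted p = 0.000238), and the chemokine receptor Ccr1 (1.07 ± 0.19, adjusted p = 0.00155) were also higher. Ceacam1, an adhesion molecule, was 0.48 ± 0.13 (adjusted p = 0.0217) and fell out with UMI totals (0.12) or without any of 4 mice (0.0603 to 0.167). Of 21 pattern recognition genes, 3 were higher in NZB and 0 lower (2 and 0 with UMI totals), against 4.51% and 3.92% of all genes. Irak4, a kinase of Toll-like receptor signalling, was 33.2 to 37.1 against 17.7 to 24.6 CPM (0.95 ± 0.19, adjusted p = 0.00203). Tlr2 and Tlr4 (1.17 ± 0.29 and 0.98 ± 0.28, adjusted p = 0.0191 and 0.0348) each lost the call without some mice (adjusted p up to 0.0762 and 0.176), and Cd14 did not pass (adjusted p = 0.397).

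Among Ly6 proteins other than Ly6c2, Ly6g was 2984, 2649 and 2768 CPM in NZB, 1643, 1357 and 1399 in NZW and 1792, 1862 and 1973 in NZBWF1, again without overlap (1.11 ± 0.15, adjusted p = 3.82e-05). Ly6e was 1.80 ± 0.35 higher (adjusted p = 0.0163; 0.0639 without NZW mouse 3). Members of this family resemble one another, and reads could be split. S100a6, a calcium-binding protein, was 2711 to 3697 CPM in NZB and 1198 to 1855 in NZW (1.19 ± 0.20, adjusted p = 0.00104), and was the only 1 of 8 alarmin genes called, against 4.51% higher and 3.92% lower of all genes. S100a8 (0.15 ± 0.13) and S100a9 (0.19 ± 0.12) did not pass (adjusted p = 0.592 and 0.408).

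Of 16 survival genes, 4 were higher in NZB and 0 lower, against 4.51% and 3.92% of all genes, with a median of 0.36. Pim1, a kinase induced by cytokines, was 58.8, 84.3 and 73.8 CPM in NZB, 34.9, 33.4 and 27.4 in NZW and 33.6, 28.4 and 39.9 in NZBWF1 (1.36 ± 0.17, adjusted p = 1.97e-05). Both the death receptor Fas (2.14 ± 0.29, adjusted p = 4.41e-05) and the anti-apoptotic proteins Bcl2a1b (1.96 ± 0.31, adjusted p = 0.00025, one of several near copies) and Mcl1 (0.68 ± 0.14, adjusted p = 0.00353) were higher. Of 22 transcription factors, Cebpb (0.73 ± 0.13, adjusted p = 0.000763) and Junb (0.97 ± 0.22, adjusted p = 0.00873) were higher and Runx1 (-0.89 ± 0.20, adjusted p = 0.00518) lower, against 4.51% and 3.92% of all genes. Junb, which tissue dissociation can induce, was lost without NZB mouse 2 or NZW mouse 3 (adjusted p = 0.0521 and 0.0618). It was the only 1 of 10 dissociation genes called, against 4.51% higher and 3.92% lower of all genes. Of these 10 genes, 5 were higher and 0 lower in NZB at an unadjusted p under 0.05 by edgeR. Their median was 0.44 against -0.02 for all genes, and the part of cell handling in the strain differences was not tested. Cebpe did not pass (-0.09 ± 0.15, adjusted p = 0.793).

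MHC class I genes differed in both directions, with 2 of 12 higher and 3 lower in NZB (1 and 3 with UMI totals), against 4.51% and 3.92% of all genes. H2-D1 was 1145 to 1434 CPM in NZB and 652 to 723 in NZW (1.119 ± 0.15, adjusted p = 3.5e-05). H2-T23 was 14.5 to 15.5 CPM in NZB and 75.9 to 103 in NZW (-2.40 ± 0.20, adjusted p = 9.7e-08), and H2-T22 2.73 to 4.15 against 16.4 to 19.6 CPM. H2-Q10 had 0 UMIs in NZB and 332 in NZW, which was at least 107-fold higher. These genes are variable between strains and alike in sequence, so their counts are uncertain.

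In the NADPH oxidase list, 0 of 8 genes passed by edgeR, 3 had an unadjusted p under 0.05 and DESeq2 called 1, lower in NZB. With 8.43% of all genes called in either direction, 0 of 8 is near the background. Of 14 protease inhibitors, 1 was lower (Serpinb2, -1.50 ± 0.41, adjusted p = 0.0246) and 0 higher in NZB, also near it, while DESeq2 called 1 higher and 0 lower. The smallest adjusted p of the NADPH oxidase list belonged to Cybb, at 1515, 1568 and 1556 CPM in NZB, 2332, 2243 and 2426 in NZW and 2519, 2124 and 2029.8 in NZBWF1 (-0.41 ± 0.13, adjusted p = 0.0636). The NZB mice lay below all others in Cybb CPM, and with UMI totals the NADPH oxidase list had 1 call. Of 24 S phase and 30 mitotic genes other than those of the rule, 0 passed by edgeR or DESeq2, and 1 of each had an unadjusted p under 0.05. With UMI totals 1 S phase gene was called lower in NZB. Of 13 mitochondrial genes, 2 were lower and 0 higher in NZB (3 and 0 with UMI totals), against 3.92% and 4.51% of all genes. These were mt-Nd1 (-1.11 ± 0.24, adjusted p = 0.011) and mt-Nd4l (-0.88 ± 0.25, adjusted p = 0.0298), the latter lost without any of 4 mice (adjusted p of 0.0561 to 0.171). The summed level was 8047.5 to 13362 CPM in NZB, 10852 to 17412 in NZW and 10386 to 13575 in NZBWF1, and these ranges overlapped.

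Transcripts of other cells also differed between strains and stood beside these results. In the B cell list 3 of 6 genes were lower in NZB and 0 higher, against 3.92% and 4.51% of all genes, and the genes named from these lists were chosen after their values were seen. Ebf1, a B lineage factor, was 2.28 to 7.06 CPM in NZB, 17.3 to 27.4 in NZW and 23.9 to 35.4 in NZBWF1. Cd79b and Vpreb3 were also lowest in NZB, and reached at most 32.9 and 40.3 CPM in any mouse. The summed level of the B cell list did not follow these genes, since it was highest in NZB mouse 3, mostly from Igkc, as given above. Of the plasma cell list Xbp1, which granulocytes also use, was lower in NZB (-0.61 ± 0.14, adjusted p = 0.00685). Of 2 stem or early progenitor genes tested, 1 was lower and 0 higher, and they stood in opposite directions: Kit was lower in NZB (-2.14 ± 0.34, adjusted p = 0.00031), and Ly6a was 9.56 to 23.3 CPM in NZB and 1.15 to 2.26 in NZW (3.36 ± 0.97, adjusted p = 0.0781). The summed level of that list was 13.2 to 29.1 CPM in NZB and 12.7 to 18.1 in NZW. No gene of the monocyte, macrophage, dendritic, erythroid, T or NK, basophil or mast cell or megakaryocyte lists passed by edgeR or DESeq2 (1 monocyte and 1 megakaryocyte gene had an unadjusted p under 0.05), and no eosinophil gene could be tested. The part of other cells' RNA in the strain differences was not tested beyond subtracting estimated free RNA and leaving out barcodes marked as doublets. With free RNA subtracted, 758 genes were called between NZB and NZW, 610 of them among the 628 of the main fit. Of the genes named, this took the edgeR call from Ctsc (adjusted p = 0.367) and mt-Nd1 (0.0555) between the parents. With doublets left out, 733 genes were called, 604 of them among the 628.

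**Figure D5:**
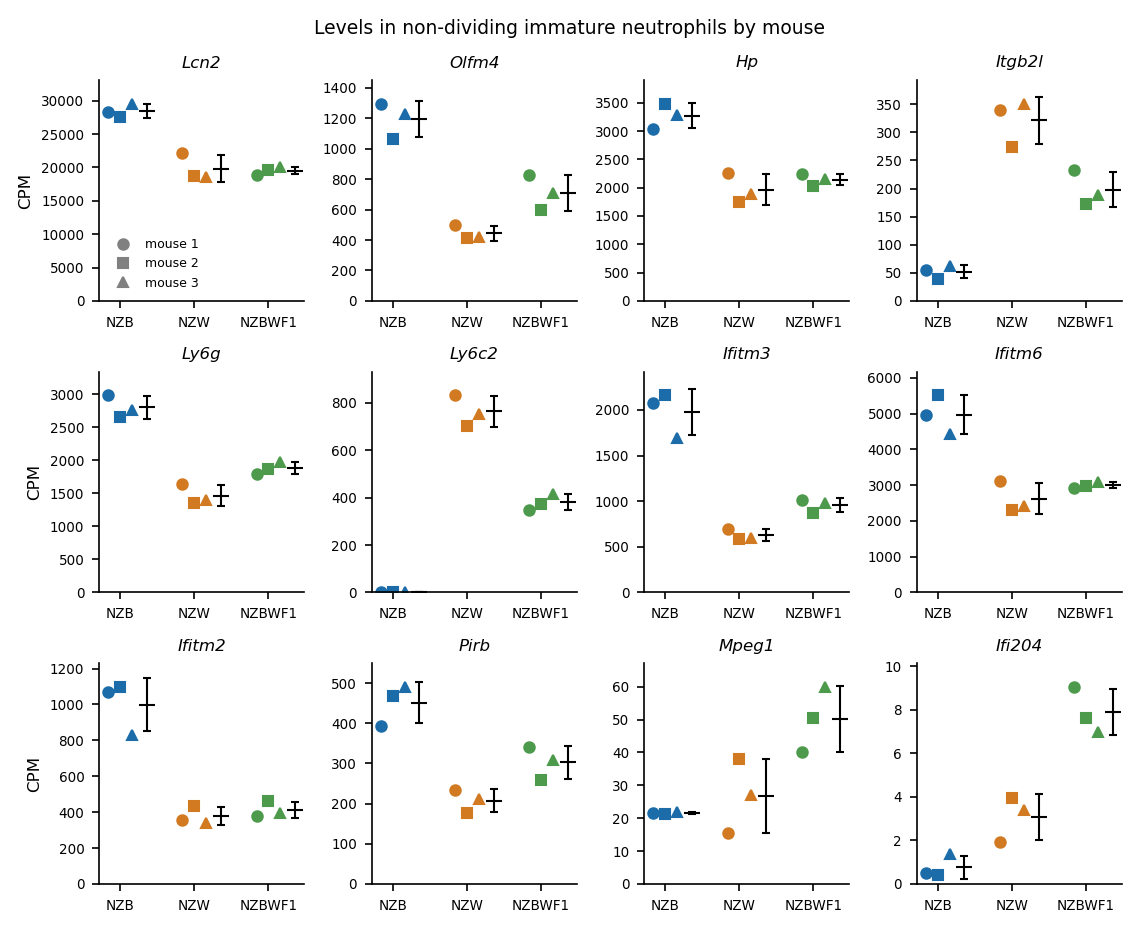
Levels (CPM) of 12 genes in immature neutrophils, with a point per mouse and the mean ± SD of each strain. NZB lies above both other strains for Lcn2, Olfm4, Hp, Ly6g, Ifitm3, Ifitm6, Ifitm2 and Pirb and below them for Itgb2l and Ly6c2, while NZBWF1 lies above both parents for Mpeg1 and Ifi204.

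The hybrid was compared with each parent in the same fit, so these comparisons share their samples. Against NZB, 222 of 7452 genes passed (2.98%), 109 higher (1.46%) and 113 lower (1.52%) in NZBWF1, although UMI totals gave 306 higher and 53 lower among 359. Against NZW, 61 passed (0.819%), 41 higher (0.55%) and 20 lower (0.268%). In the hybrid, 563 (89.6%) of the 628 genes called between the parents had a mean CPM between the parental means, 50 lay above both and 15 below. Since those genes were chosen by the parental difference, this is a description. Of the 628, 393 were nearer to NZW on the log2(CPM + 1) scale. These places were taken from CPM without TMM factors. With UMI totals the median gene stood at 0.218 (log2) for NZBWF1 less NZB and 0.027 for NZBWF1 less NZW. With TMM these medians were 0.009 and -0.004. The places of the 628 genes were not recomputed with TMM, so how far the nearness to NZW depends on scaling was not tested.

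Several groups illustrated the position of the hybrid. For Lcn2 and Hp, NZBWF1 was lower than NZB (-0.76 ± 0.13 and -0.82 ± 0.15, adjusted p = 0.00269 and 0.00244), while against NZW the differences were -0.05 and 0.09 (adjusted p = 0.96 and 0.932). Olfm4 was lower than in NZB (-0.97 ± 0.16, adjusted p = 0.00125) and not called against NZW (0.64 ± 0.16, adjusted p = 0.0771). Itgb2l was called against both, higher than in NZB (1.70 ± 0.17, adjusted p = 8.26e-06) and lower than in NZW (-0.74 ± 0.16, adjusted p = 0.0263). The latter call was lost when any of 5 mice was left out (adjusted p of 0.0509 to 0.215). Pim1 resembled Lcn2, at -1.30 ± 0.17 against NZB (adjusted p = 0.000114) and 0.06 ± 0.18 against NZW (adjusted p = 0.969). Prok2, a secreted chemoattractant, was 22.9 to 31.2 CPM in NZBWF1 against 58.7 to 91.4 in NZB (-1.65 ± 0.20, adjusted p = 5e-05). Of the 55 interferon-stimulated genes, 1 was higher and 4 lower than in NZB, where 1.46% and 1.52% of all genes were (DESeq2 called 1 and 3, UMI totals gave 2 and 3). Against NZW 2 were higher and 0 lower, where 0.55% and 0.268% of all genes were (DESeq2 called 2 and 0, UMI totals gave 3 and 0). Ifitm3 (-1.27 ± 0.15, adjusted p = 5e-05) and Ifitm6 (-0.94 ± 0.16, adjusted p = 0.00155) were lower than in NZB.

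Against NZW, Gm35082, a transcript of unknown function, was 0.411 to 5.18 CPM in NZBWF1 and 29.2 to 35.0 in NZW, and at most 0.831 CPM in NZB. Ldhb, a lactate dehydrogenase subunit, was 3.61 to 4.57 CPM in NZB, 31.9 to 33.8 in NZW and 11.4 to 16.03 in NZBWF1 (-1.33 ± 0.19 against NZW, adjusted p = 0.000648). Syngr1, a vesicle protein, was 2.06 to 4.15, 23.03 to 26.6 and 9.04 to 11.01 CPM (-1.34 ± 0.22, adjusted p = 0.00277). St8sia1, a ganglioside sialyltransferase, had 1 UMI in NZW members, too few for a size of change.

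No gene passed against both parents in the same direction by edgeR or by DESeq2, whereas at an unadjusted p under 0.05 against each, 42 were higher and 20 lower in the hybrid. Against the parental mean on the log scale, the contrast the study used, 23 genes passed (0.309%), 22 higher (0.295%) and 1 lower (0.0134%). For several, among them Ly6c2, Ftl1, Ftl1-ps1, H2-Q10 and Htatip2, NZBWF1 lay between parents that differed widely, and a level midway between them on a linear scale is above the mean of their logs. Of these 23 genes, only Ifi204, Mpeg1 and Arl5c had every hybrid mouse outside the range of all 6 parents. How many uncalled genes were separated in this way is not given here. Ifi204 was 9.06, 7.62 and 6.99 CPM in NZBWF1, 0.515, 0.415 and 1.37 in NZB and 1.92, 3.96 and 3.38 in NZW (2.197 ± 0.38, adjusted p = 0.00921), from few UMIs. Mpeg1, which encodes the pore-forming perforin-2, was 40.1, 50.4 and 60.01 CPM against 21.2 to 21.9 in NZB and 15.4 to 37.9 in NZW (0.98 ± 0.19, adjusted p = 0.0355). Arl5c, a small GTPase, was 8.41 to 12.7 CPM against 1.03 to 8.02 in all parents (1.43 ± 0.29, adjusted p = 0.0355). All 3 calls depended on single mice: Ifi204 was lost without NZBWF1 mouse 2 or 3 (adjusted p = 0.0622 and 0.0563), Mpeg1 without any of 6 mice (0.0755 to 0.357) and Arl5c without any of 7 (0.0588 to 0.352). Mpeg1 is known from macrophages and B cells, whose summed markers in members were 113 to 223 and 152 to 441 CPM in NZBWF1 against 48.6 to 143 and 74.2 to 945 CPM in the parents. Against the parental mean, the median log2 difference in members was 1.14 for 6 B cell genes (1 called higher), 0.92 for 7 monocyte genes and 0.73 for 6 macrophage genes (0 called by edgeR under TMM or by DESeq2, 1 monocyte gene with UMI totals, and 1 and 5 higher at an unadjusted p under 0.05), against 0.00 for all genes. In addition, 3 of 6 B cell genes were higher than in NZB (1.46% of all genes) and 1 of 7 monocyte genes higher than in NZW (0.55% of all genes). The part of other cells' RNA in the rises of Mpeg1, Ifi204 and Arl5c was not tested beyond subtracting free RNA and leaving out marked doublets. Subtracting free RNA took the edgeR calls from Mpeg1 (adjusted p = 0.0865) and Arl5c (0.166). Leaving out doublets took that of Mpeg1 (0.163). Ifitm2 was called lower than the parental mean (1 gene in all, against 3 by DESeq2, 11 without a filter on low counts and 0 with UMI totals; -0.70 ± 0.14, adjusted p = 0.0308), at 377, 462 and 396 CPM, overlapping NZW (341 to 435 CPM). That call was lost without any of 6 mice (adjusted p of 0.0567 to 0.34) and with UMI totals (0.0586).

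Whether the parental difference was particular to this stage was tested with the interaction of strain and population in each mouse. Against dividing precursors 7 of 8563 genes differed (0.0817%), 4 with a signed log2 difference (NZB less NZW) that was more positive in members (0.0467%) and 3 with a more negative one (0.035%). The largest evidence was for Ifitm2, which was higher in NZB than NZW in members (999.8 ± 149 against 377 ± 50.6 CPM) and lower in dividing cells (450.2 ± 65.3 against 717 ± 33.6 CPM). The difference of differences was 2.204 ± 0.13 (log2 ± SE, adjusted p = 1.88e-11). With at least 2000 UMIs and 1000 genes per cell, which left 678 members, the NZB less NZW difference of Ifitm2 in members was -0.16 (adjusted p = 0.807). Cmc2 differed between the parents more in members (80.7 ± 6.79 against 11.9 ± 3.48 CPM) than in dividing cells (119.6 ± 2.02 against 86.7 ± 6.81 CPM). Ly6e differed less, since it was 51.8 CPM in both populations of NZW but 154 ± 50.7 CPM in members and 359 ± 81.9 CPM in dividing cells of NZB.

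Against mature cells 10 of 7954 genes differed (0.126%), 8 with a more positive signed difference in members (0.101%) and 2 with a more negative one (0.0251%). The latter, Ly6c2 and Cd3d, were further below NZW in NZB members than in mature NZB cells, whereas the gaps of Cebpe and Cybb were narrower in members. Cebpe was 664 ± 24.9 CPM in NZB and 804 ± 66.9 CPM in NZW members but 26.3 ± 14.5 and 263 ± 88.1 CPM in mature cells, where NZB had only 7 UMIs. Cybb was 1546 ± 27.6 and 2334 ± 91.3 CPM in members and 279 ± 75.7 and 1029 ± 189.9 CPM in mature cells (1.37 ± 0.26, adjusted p = 0.000166). Ly6e was higher in NZB than in NZW in members and lower on average in mature cells (355 ± 158 against 502 ± 202 CPM). Mature NZW cells also held the most Elane, as given above, and the part of early cells among them in these results was not tested.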

How the data were processed

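Femur marrow of 9 mice was profiled with 10x 3' v3.1 reagents. Per the labels and the study's methods, the authors used Cell Ranger 3.1.0 and bcl2fastq 2.20 with genome build mm10, a reference of another mouse strain. They deposited aggregated UMI counts per gene and barcode, as 1 table of filtered barcodes and 1 of all barcodes, with no normalization in the tables themselves. The table of all barcodes was used here only to estimate free RNA. The annotation and any thinning of reads during aggregation are not given in the sources used here. Strain differences in sequence could change how many reads were counted, which was not tested. Of 31053 gene IDs, 31011 matched GENCODE M21 on GRCm38, the source of gene coordinates. Barcodes were assigned to mice by the suffix of each barcode.

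Barcodes were kept by the limits the study states (1000 UMIs, 500 genes, 10% mitochondrial UMIs). Dividing precursors met the Camp and Ngp limit of 1% with a UMI of Mki67 or Top2a, and mature neutrophils had under 1% and at least 5% of UMIs from S100a8 and S100a9. Of 14208 kept barcodes at 1% or more, 762 had Cd79a, 338 Csf1r and 5128 Mki67 or Top2a. No doublets were removed in the main analysis. Scrublet, at an assumed 0.8% doublets per 1000 barcodes, marked 192 members (2.28%).

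Counts were summed per mouse and tested with edgeR 4.0.16 (quasi-likelihood test, filterByExpr, TMM, R 4.3.3), all 3 strains in 1 fit, at an adjusted p under 0.05 (Benjamini-Hochberg), and DESeq2 1.42.0 was an alternative. Interactions were fitted over both populations with the mouse as a block. Shares were compared by two-sided exact permutation tests, adjusted over 4 tests. In simulated counts for NZB against NZW, 188 of 200 genes changed 2-fold were recovered among 7454, and 12 others were called. The changed genes were drawn only above a minimum mean level, and the counts held no shared deviation by replicate number. Recovery of genes at lower levels was not tested. CPM are UMIs per 1000000 of the summed members. Floors and shares cover counting error only. Scripts ran in Python 3.11.15 with scanpy 1.11.5, pandas 2.3.3, numpy 2.4.6, scipy 1.17.1 and matplotlib 3.10.9.

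Genes were named by rule: in each strain comparison, up to 5 called genes per direction of smallest p whose mice did not overlap, the leading interaction calls, up to 4 genes of smallest p in each functional list, and genes that define a stage, given as levels. Genes named outside it are said to be chosen after their values were seen. The members and all lists were chosen with earlier results of these data known. Alternatives covered the Camp and Ngp limit, stricter depth limits, filters on low counts, doublets, free RNA, the replicate number as a block and each mouse left out. Analyses without the gene minimum and with UMI totals in place of TMM were added after seeing the data. Some genes that met the naming rule are not reported here.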

Additional observations from a re-analysis of the deposited data

Results flagged for a closer look

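A total of 17 differences between NZB and NZW depended on the neutrophil stage by the interaction test of edgeR (adjusted p under 0.05). Each value is the log2 difference of NZB less NZW in immature neutrophils less that in the other population, ± SE.

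Against dividing precursors, the signed difference was more positive in immature cells for Ifitm2 (2.204 ± 0.13), Cmc2 (2.44 ± 0.20), Ldhc (1.55 ± 0.25) and Cd52 (0.57 ± 0.11). Ldhc, a lactate dehydrogenase of germ cells, was 41.2 CPM in NZB and 33.9 CPM in NZW members but 15.2 and 33.1 CPM in dividing cells. Cd52, a surface glycoprotein of leukocytes, was 3564 and 3740 CPM in members and 1784 and 2558 CPM in dividing cells. The gaps of Ldhc and Cd52 between strains were thus narrower in members. The signed difference was more negative in immature cells for Klhdc4 (-1.43 ± 0.24), Ly6e (-1.06 ± 0.18) and Gde1 (-1.26 ± 0.25). Klhdc4 was 20.1 and 50.9 CPM in members against 24.2 and 20.7 CPM in dividing cells, and Gde1 17.7 and 55.1 CPM against 35.4 and 41.9 CPM. The Ly6e value lost its call without NZW mouse 2 (adjusted p = 0.212). Calls were also lost for Cd52 without any of 5 mice (adjusted p of 0.0515 to 0.216), Gde1 without any of 7 (0.0584 to 0.263; 0.328 by DESeq2), Klhdc4 without NZB or NZW mouse 3 (0.0674 to 0.0878) and Ldhc without NZB mouse 2 or 3 (0.0523 to 0.0584).

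Against mature neutrophils, the values were -4.45 ± 0.55 for Ly6c2, 2.19 ± 0.30 for Ly6e, 3.01 ± 0.45 for Cebpe, -3.17 ± 0.51 for Cd3d and 1.37 ± 0.26 for Cybb. They were 6.27 ± 1.20 for the chemokine Ccl4, 4.60 ± 0.97 for the adhesion molecule Vcam1, 1.54 ± 0.33 for the protease inhibitor Serpinb1a, 3.35 ± 0.75 for the growth factor binding protein Igfbp4 and 1.24 ± 0.31 for the inhibitory lectin Clec12a. Few UMIs lay behind several of them in mature NZB cells: 16 for Ly6c2, 17 for Cd3d, 7 for Cebpe, 3 for Ccl4, 1 for Vcam1 and 3 for Igfbp4. Without NZW mouse 1 the Ccl4 call was lost (adjusted p = 0.513), and without NZB mouse 2 or 3 that of Vcam1 (0.0581 to 0.105), and DESeq2 called neither. Vcam1 and Igfbp4 were alike in members of both parents (18.1 and 23.2 CPM, and 34.7 and 31.7 CPM) and were 125 and 110.1 CPM in mature NZW cells. In mature cells the summed primary granule genes were 1498 to 8473 CPM in NZB and 6749 to 18346 CPM in NZW, and summed macrophage markers 51.1 to 158 and 245 to 856 CPM. Their part in these differences was not tested.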

How the results depend on the processing

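Of 152 differences of named genes, 1479 values under other settings left 1390 on the same side of the threshold, 88 no longer past it and 1 reversed: Ifitm2 between the parents, -0.16 with at least 2000 UMIs and 1000 genes. Leaving out single mice, 170 of 1368 values lost their call and 0 reversed. The stricter depth setting, which left 678 members, accounted for 45 of the 88, made the difference in the share of kept barcodes between NZBWF1 and the parents 0.982 points in place of -3.40 and that of neutrophil-lineage barcodes 4.85 in place of 1.40 (exact permutation p = 0.0357, adjusted 0.121), and gave 109 calls between the parents and 64 for NZBWF1 against NZB. Leaving out single mice, the share differed by -5.76 to -2.00 points of kept and -2.35 to 4.31 points of neutrophil-lineage barcodes, the latter below 0 without NZB mouse 2 (-0.504), NZW mouse 2 (-0.701) or NZBWF1 mouse 1 (-2.35), against 1.40.

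Calls numbered 397 to 791 between the parents with a mouse left out (397 without NZW mouse 3), 120 to 247 against NZB (120 without NZBWF1 mouse 3, 139 and 133 without NZB mouse 2 and 3), 31 to 65 against NZW (35, 31 and 34 without NZW mouse 1, NZW mouse 3 and NZBWF1 mouse 3), 16 to 26 against the parental mean, 6 to 16 for the interaction with mature cells (6 without NZB mouse 3, 16 without NZW mouse 2) and 4 to 9 with dividing cells (4 without NZB mouse 3). Without a filter on low counts, 391, 122 and 81 genes passed for NZBWF1 against NZB, NZW and the parental mean. With at least 10 counts in every mouse, 23 and 4 passed against NZW and the parental mean, and 2 for the interaction with mature cells, where DESeq2 gave 5. Without the gene minimum 1034 and 417 passed between the parents and against NZB (82 and 33 against NZW and the parental mean), and all 138 differences of named genes refitted kept their direction and call, and with UMI totals 359 against NZB. The cause was not tested.

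Replicate numbers were shared by the strains. Mice of the same number deviated together for 1 (r = 0.599 to 0.663) and 2 (0.570 to 0.676), less so for 3 (0.0549 to 0.113), and 8 of 9 mice correlated best with their own number. As the labels give the number no meaning, it was not used as pairing. With the replicate block, 1200, 730, 184 and 101 genes passed between the parents, against NZB, against NZW and against the parental mean (65 higher and 36 lower). For the number of members among kept barcodes, edgeR gave a log2 difference between NZB and NZW of 0.36 with the block (adjusted p = 0.0639) and 0.34 without it (adjusted p = 0.324).

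Mature cells (42 to 79 per mouse) and genes under about 10 UMIs per strain limit the depth, and 3 mice per strain limit every test.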
